A study of Mus musculus with 4 samples.

Results

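The genes described here encode the classical ligands and receptors of axon guidance. They are the 71 of 23420 gene symbols in the count tables that name a semaphorin of classes 3 to 7, a plexin, a neuropilin, an ephrin, an Eph receptor, a Slit, a Robo receptor, a netrin, a netrin-G, Dcc or an Unc5 receptor. Of the 71 genes, 37 encode ligands and 34 encode receptors. They were taken by symbol and not by any measured value. All 71 passed the filter on low counts and were tested.

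The prefrontal cortex (PFC) of C57BL6/J mice, 6 to 8 weeks old in the description of the series, was injected with an AAV9 vector that carried either an shRNA against *Ash1L* (2 samples) or GFP (2 control samples). *Ash1L* encodes a histone lysine methyltransferase. The methods of the study place the shRNA under a U6 promoter, which is active in most cell types, in a GFP-tagged vector. They name scrambled shRNA as the control, give an age of 5 weeks at injection, and state that punches of GFP-fluorescent PFC from 3 mice were pooled for each sample. By the description of the series, 3 knockdown animals and 2 control animals were used. The punches were not sorted, so uninfected cells may contribute to every sample, and fewer cells of a type cannot be told apart from less RNA per cell. The labels call the samples of a group biological duplicates. The p-values rest only on the spread between such duplicates, with each gene's spread drawn toward that of all genes tested.

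Guidance ligands steer growing axons by attraction or repulsion through receptors on the growth cone that act on the cytoskeleton. Secreted class 3 semaphorins bind neuropilins, which signal through class A plexins, whereas most transmembrane semaphorins bind plexins directly. Ephrins stay attached to the membrane and signal on contact through Eph receptor tyrosine kinases, and Slits repel through Robo receptors. Netrin attracts through Dcc and repels through Unc5 receptors, and netrin-Gs are membrane-anchored relatives that bind postsynaptic partners instead. In the mature cortex many of these genes stay active and are known for roles in dendritic spines and synapses.

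The 4 libraries held between 14251190 and 35764874 counts, and control sample 1 was the shallowest. The counts of the 71 genes ran from 11 (*Efna4*) to 16443 (*Epha4*). *Ash1l*, the targeted gene, had a level of 245 and 290 CPM (TMM-normalized counts scaled to a common library size) in the control samples, and 216 and 138 in *Ash1L* shRNA samples 1 and 2. The groups did not overlap, and sample 1 of the shRNA group lay nearer to the controls. The fitted log2 change, shRNA minus control throughout, was -0.60 with a standard error (SE) of 0.22, with an unadjusted p of 0.0362 and an adjusted p of 0.275 (edgeR quasi-likelihood test). The unadjusted p was 0.0603 without control sample 1, 0.175 without control sample 2 and 0.0574 without *Ash1L* shRNA sample 2, so that the call was lost in these 3 cases. A gene is called DOWN or UP here with the limits of the study, an unadjusted P under 0.05 and at least a 1.2-fold change, but on the P of edgeR's quasi-likelihood test where the study used DESeq2. The excitatory neuron markers were present in all samples.

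Of the 71 guidance genes, 11 were DOWN and 6 were UP, or 15.5% and 8.45%. Over all 16232 genes tested, the shares were 8.28% DOWN and 8.61% UP. The UP share was therefore near that of all genes. By Benjamini-Hochberg adjusted p in the edgeR quasi-likelihood test, 0 guidance genes passed 0.05, against 0.00616% of all genes. By unadjusted p in that test, 17 of the 71 genes passed 0.05, against 2746 of all 16232 genes (16.9%). Adjusted p-values of the 17 called genes lay between 0.250 and 0.287. With DESeq2, and likewise with edgeR's likelihood ratio test, 3 guidance genes passed the adjusted limit, namely *Plxnb1*, *Nrp1* and *Epha2*. That is 4.23% of the 71 genes, against 2.59% of all genes with DESeq2 and 2.95% with the likelihood ratio test. The median log2 change of the 71 genes was -0.17, beside -0.0027 over all genes tested, and 45 of the 71 were below 0, against 50.3% of all genes. The counts of calls depended on single samples. There were 8 DOWN and 4 UP without control sample 1, 4 and 0 without control sample 2, 23 and 10 without *Ash1L* shRNA sample 1, and 11 and 5 without *Ash1L* shRNA sample 2. The shares over all genes moved as well, from 1.86% DOWN and 2.57% UP without control sample 2 to 16.5% and 14.4% without *Ash1L* shRNA sample 1. Of the 17 called genes, *Plxna1*, *Plxnb1*, *Ntng1* and *Unc5a* were also called without control sample 2. Without control sample 1 the calls of *Plxna1*, *Plxnc1*, *Epha1*, *Ntn1*, *Ntng1* and *Unc5c* were lost, and without *Ash1L* shRNA sample 2 those of *Sema3a*, *Sema4f*, *Plxna3*, *Epha1*, *Ntn1* and *Unc5c*. *Plxnb1* and *Unc5a* were called whichever sample was omitted.

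The receptors held most of the DOWN genes. Of the 34 receptor genes, 8 were DOWN (23.5%) and 3 were UP (8.82%), with a median log2 change of -0.23. Of the 37 ligand genes, 3 were DOWN and 3 were UP (8.11% each), with a median of -0.01. Over all genes tested, 8.28% were DOWN and 8.61% UP. Both ligand shares and the receptor UP share were therefore near those of all genes. The difference between the roles was not tested. In 28 of the 71 genes the shRNA group lay wholly below the controls, and in 14 wholly above. Over all genes tested, these shares were 26.8% and 26.5%. With 2 samples a group, 0.333 is the smallest two-sided p of an exact permutation test. All 17 called genes lay farther from the control mean in *Ash1L* shRNA sample 2 than in sample 1, as did 85.5% of the called genes in the whole table.

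**Figure D1:**
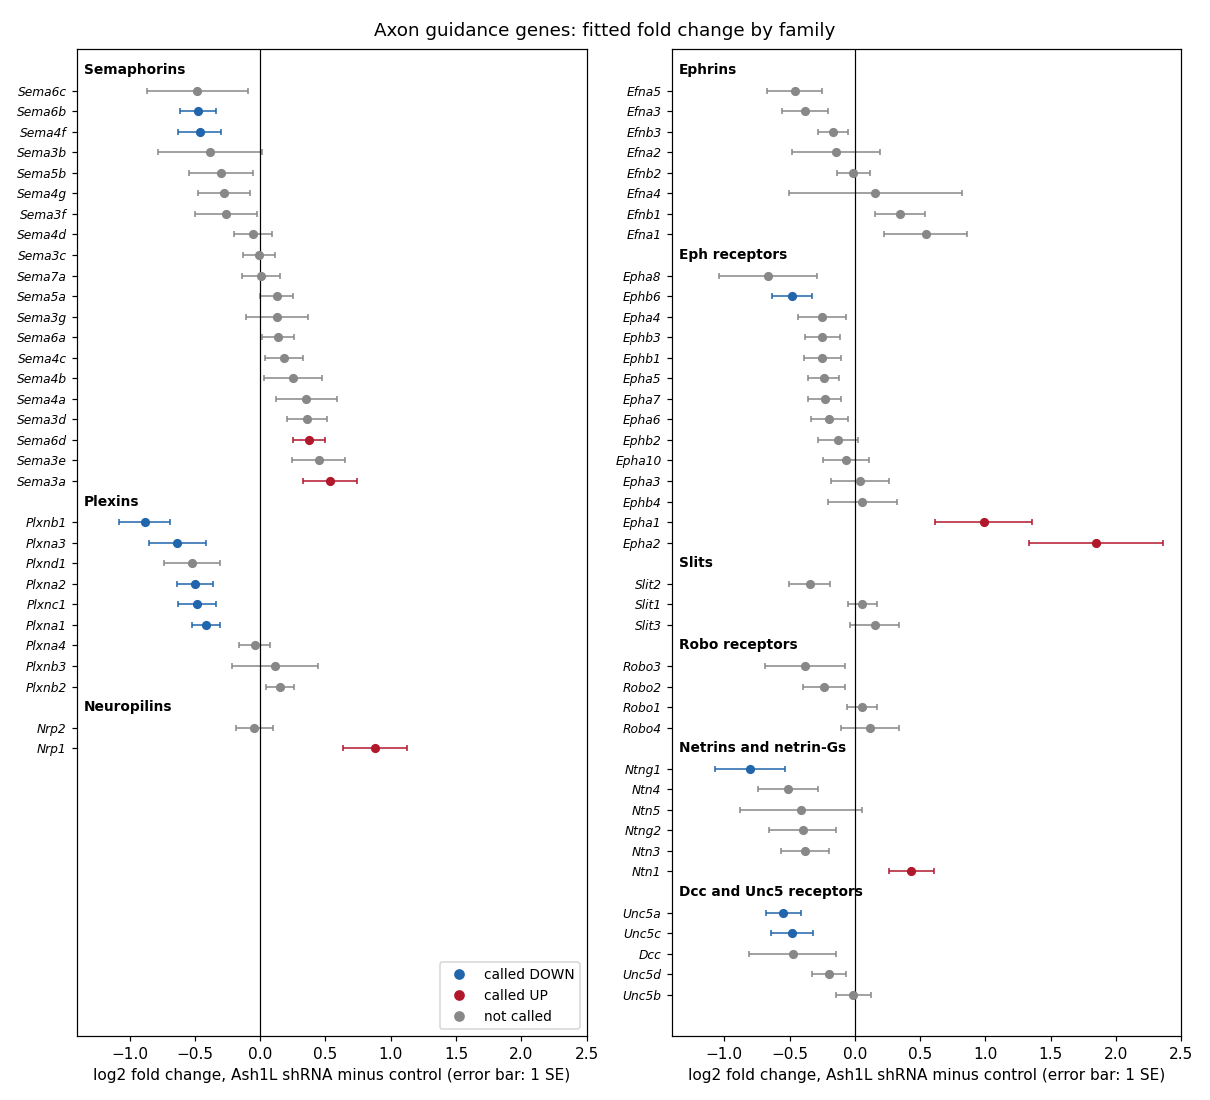
Fitted log2 change (*Ash1L* shRNA minus control, x axis) of each of the 71 guidance genes, ordered within its family, with bars of 1 SE and color for the call. The plexins and the Dcc and Unc5 receptors lie mostly to the left of 0, with *Plxnb1* lowest at -0.89, while the semaphorins spread to both sides and *Epha2* stands farthest to the right at 1.85.

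Plexins were the family with the highest share of DOWN genes. Of 9 plexin genes, 5 were DOWN (55.6%) and 0 were UP, against 8.28% and 8.61% of all genes tested. The median log2 change was -0.48. Against the control mean, the median difference of the 9 genes was -0.31 in *Ash1L* shRNA sample 1 and -0.64 in sample 2. *Plxnb1*, a receptor for the class 4 semaphorin Sema4d, had 63.4 and 84.7 CPM in the control samples, and 45.6 and 34.6 in the *Ash1L* shRNA samples. The groups did not overlap, and sample 2 was the lowest. Its mean fell from 74.1 ± 15.1 (SD, n = 2) to 40.1 ± 7.78 (SD, n = 2). The log2 change was -0.89 (SE 0.20, unadjusted p 0.00369 in edgeR's test), the lowest of the 71 genes.

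Of the 4 class A plexins, the signaling partners of the neuropilins, 3 were DOWN. *Plxna1* had 156 and 153 CPM in the control samples, and 117 and 115 in the *Ash1L* shRNA samples. The samples within each group were nearly equal, and the log2 change was -0.42 with an SE of 0.11. An annotated antisense gene, *Gm26811*, shares 10.7% of its exonic bases. *Plxna2* had 261 and 289 CPM in control, and 213 and 177 in *Ash1L* shRNA samples. All samples of the groups were separate, and the log2 change was -0.50 (SE 0.14). *Plxna3*, on the X chromosome, had 29.2 and 35.9 CPM in control, and 25.0 and 17.0 in *Ash1L* shRNA samples, with a log2 change of -0.63 (SE 0.22). Its sample 2 was the lowest, and the groups did not overlap. *Plxna4* was the class A plexin that was not called. It had 232 and 218 CPM in control, and 203 and 233 in *Ash1L* shRNA samples, so that the groups overlapped.

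*Plxnc1*, a receptor for Sema7a, had 103 and 102 CPM in the control samples, and 82.6 and 64.0 in the *Ash1L* shRNA samples. The shRNA group was lower, sample 2 more so, and the log2 change was -0.48 (SE 0.15). *Plxnd1*, a receptor for Sema3e, had 74.0 and 82.4 CPM in control, and 66.5 and 42.5 in *Ash1L* shRNA samples. The groups did not overlap, but sample 2 alone was far from the controls, and with a log2 change of -0.52 and an unadjusted p of 0.0518 in edgeR's test the gene stood just outside the call. It was DOWN with DESeq2 (p 0.0288) and with edgeR's likelihood ratio test (p 0.0354). *Plxnb2* had 90.5 and 97.9 CPM in control, and 103 and 106.5 in *Ash1L* shRNA samples, with a log2 change of 0.15 (SE 0.11). *Plxnb3*, which is known from oligodendrocytes, had 21.3 to 30.7 CPM in control and 19.5 to 36.9 in *Ash1L* shRNA samples, a range that enclosed the controls.

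**Figure D2:**
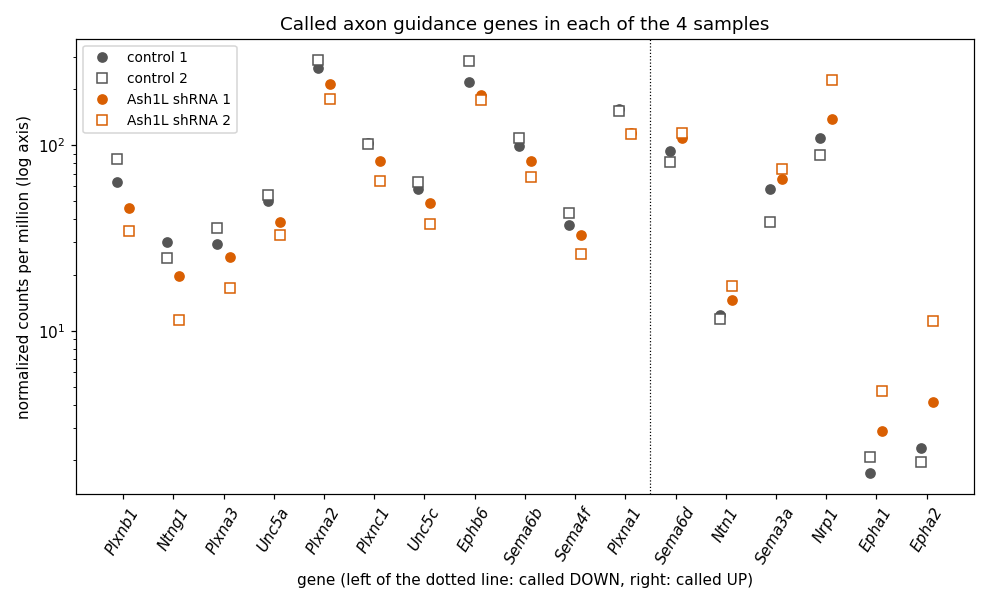
Level in CPM (y axis, log scale) of the 17 called guidance genes in each of the 4 samples. For the 11 DOWN genes on the left, both *Ash1L* shRNA samples lie under both control samples, and for the 6 UP genes on the right both lie above, with *Ash1L* shRNA sample 2 the farther of the pair in all 17.

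The neuropilins, the ligand-binding partners of class A plexins, did not follow the plexins. *Nrp1*, which binds Sema3a and also vascular endothelial growth factor, had 109 and 88.4 CPM in the control samples, and 139 and 224 in *Ash1L* shRNA samples 1 and 2. The shRNA group was higher, and the distance was mostly that of sample 2. Its mean rose from 98.8 ± 14.7 to 182 ± 60.3 (SD, n = 2 each), a log2 change of 0.88 with an SE of 0.24. Leaving out that sample gave 0.50. *Nrp2*, which favors Sema3f, had 39.7 and 40.5 CPM in control, and 35.3 and 42.5 in *Ash1L* shRNA samples, and the groups overlapped.

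Of the 20 semaphorin genes, 2 were DOWN and 2 were UP, with a median log2 change of 0.07. *Sema3a*, a secreted repellent and the main ligand of neuropilin-1, had 58.3 and 38.5 CPM in the control samples, and 65.6 and 74.1 in the *Ash1L* shRNA samples. The controls were apart from each other, and *Ash1L* shRNA sample 1 lay close above the higher control. The log2 change was 0.54 (SE 0.21), with an adjusted p of 0.281 in the edgeR test. *Sema3e* and *Sema3d* lie to either side of *Sema3a* on chromosome 5, where the 3 genes span positions 12383385 to 14256689 (mm10). *Sema3e* had 51.6 and 41.5 CPM in control, and 51.9 and 74.8 in *Ash1L* shRNA samples, a log2 change of 0.45 with an unadjusted p of 0.0714 in edgeR's test. *Sema3d* had 14.9 and 16.1 CPM in control, and 21.3 and 18.6 in *Ash1L* shRNA samples, a log2 change of 0.36 with an unadjusted p of 0.0583. Neither was called, although their groups did not overlap. *Sema3c*, on the same chromosome from 17574281 to 17730268, had a log2 change of -0.01, with 51.4 to 52.4 CPM in control and 48.5 to 54.7 in *Ash1L* shRNA samples. *Sema3b*, *Sema3f* and *Sema3g* had levels under 10 CPM in all samples and log2 changes between -0.39 and 0.13.

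The transmembrane class 6 semaphorins, ligands of class A plexins, went in both directions. *Sema6b* had 98.6 and 109 CPM in the control samples, and 81.8 and 67.2 in the *Ash1L* shRNA samples, so that both *Ash1L* shRNA samples were lower. Its log2 change was -0.48 with an SE of 0.14. *Sema6d* had 92.5 and 81.3 CPM in control, and 109 and 116 in *Ash1L* shRNA samples, so that both *Ash1L* shRNA samples were higher. Its log2 change was 0.37 with an SE of 0.12. Of the other class 6 genes, *Sema6a* had a log2 change of 0.14. *Sema6c* had 9.56, 9.63 and 9.57 CPM in the control samples and *Ash1L* shRNA sample 1, and 4.10 in sample 2 alone. Among class 4 genes, *Sema4f* was DOWN. It had 37.2 and 43.3 CPM in control, and 32.7 and 25.8 in *Ash1L* shRNA samples, a log2 change of -0.46 (SE 0.16). The other 5 class 4 genes had log2 changes from -0.27 (*Sema4g*) to 0.35 (*Sema4a*), and were not called. *Sema4d*, the ligand of plexin-B1, had 48.3 and 58.8 CPM in control, and 55.2 and 47.9 in *Ash1L* shRNA samples, with groups that overlapped. *Sema7a*, the membrane-anchored ligand of plexin-C1 and the most abundant semaphorin per exonic length, had 163 and 144 CPM in control, and 171 and 138 in *Ash1L* shRNA samples, with a log2 change of 0.01.

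Upstream sequence was set beside the calls. The 250 bases before the RefSeq start (GRCm38.p6, the assembly of mm10) are shown for the 2 UP genes *Sema3a* and *Nrp1*, and for the 2 DOWN plexins *Plxna2* and *Plxnb1*, because they differ in CG dinucleotides, which are dense in CpG island promoters. These 4 genes were chosen after their values were seen. Capitals mark each CG. The regions are chr5:13396534-13396783, chr8:128358823-128359072, chr1:194619579-194619828 and chr9:109095186-109095435, all on the plus strand.
Sema3a: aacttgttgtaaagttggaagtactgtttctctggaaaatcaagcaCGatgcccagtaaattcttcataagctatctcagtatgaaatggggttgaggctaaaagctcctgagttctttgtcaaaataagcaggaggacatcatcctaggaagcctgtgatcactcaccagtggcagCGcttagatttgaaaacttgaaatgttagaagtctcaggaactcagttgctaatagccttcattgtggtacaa
Nrp1: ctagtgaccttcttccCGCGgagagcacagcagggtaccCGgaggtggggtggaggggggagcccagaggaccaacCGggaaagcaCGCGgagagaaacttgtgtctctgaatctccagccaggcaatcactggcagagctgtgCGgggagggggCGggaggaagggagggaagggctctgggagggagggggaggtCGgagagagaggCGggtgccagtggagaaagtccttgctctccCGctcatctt
Plxna2: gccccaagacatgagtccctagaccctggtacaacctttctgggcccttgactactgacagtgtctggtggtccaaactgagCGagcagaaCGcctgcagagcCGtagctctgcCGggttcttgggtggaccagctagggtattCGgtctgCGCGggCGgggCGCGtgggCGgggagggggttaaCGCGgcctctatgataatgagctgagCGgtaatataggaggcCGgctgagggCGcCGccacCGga
Plxnb1: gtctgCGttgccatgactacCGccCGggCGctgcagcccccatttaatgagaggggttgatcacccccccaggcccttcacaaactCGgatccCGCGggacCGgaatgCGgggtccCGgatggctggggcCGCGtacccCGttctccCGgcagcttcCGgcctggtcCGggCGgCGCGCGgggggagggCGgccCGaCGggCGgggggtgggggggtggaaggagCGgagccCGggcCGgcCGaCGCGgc
The stretch before *Sema3a* holds 2 CG dinucleotides and 40.8% G or C, and that before *Nrp1* holds 11. The stretches before *Plxna2* and *Plxnb1* hold 18 and 30. Of the 71 guidance genes, 61 had an upstream sequence in the table used here. The RefSeq start of *Sema3a* lies 271 kb inside the gene as GENCODE vM21 draws it, that of *Plxna2* 1.61 kb inside, and 6 of the 61 starts lie over 1000 bases from the GENCODE start. Those without an entry were *Sema3b*, *Sema3f*, *Sema6a*, *Efnb3*, *Slit1*, *Plxna1*, *Plxna4*, *Ntn1*, *Unc5d* and *Dcc*. The most upstream start was taken for the 12 of them with several. The median over the 61 genes was 16 CG dinucleotides, beside 6 over all 27025 RefSeq promoters. These were not limited to the genes tested here, whereas all guidance genes passed the filter on low counts. It was 22.5 for the 10 DOWN genes with a sequence, 9 for the 5 UP genes and 16 for the 46 genes not called. The UP genes ran from 2 to 11 and the DOWN genes from 4 (*Sema4f*) to 30 (*Plxnb1*), with *Plxna3* at 12 as the only other DOWN gene under 18. This is a description of letters in a window, and no test was made. Of motifs searched on both strands, the GC box GGGCGG was in 8 of the 10 DOWN and 4 of the 5 UP genes, against 33% of all promoters and 72.1% of the 61. TATAAA was in 0 of these 15 genes, against 3.28% of the 61 and 13.0% of all promoters. The box CCAAT was in 1 of the 15, against 27.9% of the 61 and 34.5% of all promoters. The cAMP response element TGACGTCA was in 1 of the 61, an UP gene, against 1.60% of all promoters.

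**Figure D3:**
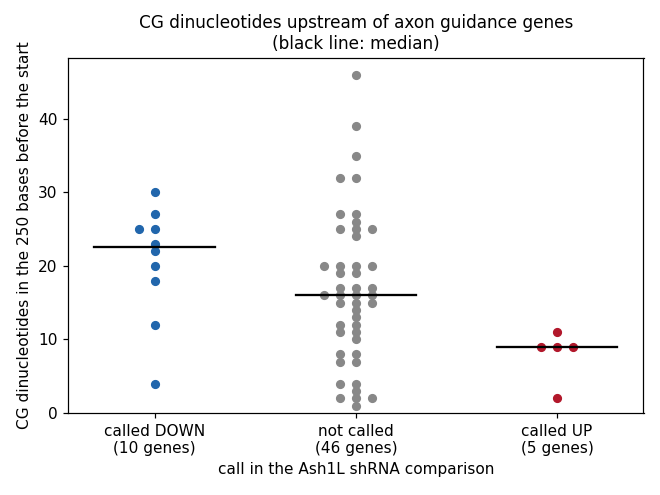
CG dinucleotides in the 250 bases before the RefSeq start (y axis) for the 61 guidance genes with a sequence, by call, with a black line at the median. The medians are 22.5 for DOWN, 16 for genes not called and 9 for UP, and the 5 UP genes lie at 11 or below, within the range of the genes not called.

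Of the 14 Eph receptor genes, 1 was DOWN (7.14%) and 2 were UP (14.3%), against 8.28% and 8.61% of all genes tested. The median log2 change was -0.21, and 10 of the 14 were below 0. *Ephb6*, an Eph receptor without kinase activity, had, with *Epha4*, the highest mean levels of the 71 genes per exonic length. It had 220 and 286 CPM in the control samples, and 187 and 175 in the *Ash1L* shRNA samples. The controls were apart from each other, the *Ash1L* shRNA samples were close together below them, and the log2 change was -0.48 (SE 0.15). *Epha4*, the receptor with the widest choice of ephrins, had 453 and 469 CPM in control, 456 in *Ash1L* shRNA sample 1 and 318 in sample 2. Sample 1 lay between the controls, and the log2 change was -0.25 (SE 0.18). Of the further Eph receptors, *Epha5*, *Epha6*, *Epha7*, *Ephb1*, *Ephb2* and *Ephb3* had log2 changes from -0.25 to -0.13. *Epha8* had one of -0.67, *Epha10* of -0.07, *Epha3* of 0.04 and *Ephb4* of 0.06. None of these genes was called.

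The UP Eph receptors were those with the lowest control levels. *Epha2*, best known from epithelia, had 2.34 and 1.97 CPM in the control samples (33 and 69 counts), and 4.13 and 11.3 in *Ash1L* shRNA samples 1 and 2 (113 and 234 counts). The shRNA group was higher, and its samples differed from each other by more than sample 1 differed from the controls. The log2 change was 1.85 with an SE of 0.51, and 0.96 without *Ash1L* shRNA sample 2. *Epha1* had 1.70 and 2.08 CPM in control (24 and 73 counts), and 2.88 and 4.73 in *Ash1L* shRNA samples (79 and 98 counts). Both *Ash1L* shRNA samples were higher, and the log2 change was 0.98 with an SE of 0.38. *Epha1* shares 6.01% of its exonic bases with *Zyx* on the opposite strand.

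None of the 8 ephrin genes was DOWN or UP in edgeR's test. An unadjusted p under 0.05 was found for 0 of them, against 16.9% of all genes tested, which says little with so few genes. Their median log2 change was -0.08. The ephrin-A genes *Efna5* and *Efna3* came nearest to the call. *Efna5*, a repellent of cortical and retinal axons, had 19.1 and 15.7 CPM in the control samples, and 14.4 and 10.7 in the *Ash1L* shRNA samples. The groups did not overlap, with a log2 change of -0.46 and an SE of 0.21. *Efna3* had 23.2 and 29.4 CPM in control, and 18.4 and 22.1 in *Ash1L* shRNA samples, with a log2 change of -0.38 (SE 0.18). The ephrin-B genes ran from -0.17 (*Efnb3*) to 0.34 (*Efnb1*). *Efnb3*, the most abundant ephrin per exonic length, had 51.9 and 50 CPM in control, and 45.4 and 45.2 in *Ash1L* shRNA samples. With 11 to 16 counts in each sample, *Efna4* could not show a difference of moderate size.

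Of the 6 netrin and netrin-G genes, *Ntn1* was UP and *Ntng1* was DOWN (16.7% each, against 8.61% and 8.28% of all genes tested). *Ntn1*, the secreted ligand of Dcc and Unc5 receptors, had 12.2 and 11.6 CPM in the control samples, and 14.7 and 17.4 in the *Ash1L* shRNA samples. The shRNA group was higher by a small margin, with a log2 change of 0.43 (SE 0.17) and an unadjusted p of 0.0443 in edgeR's test, just inside the call. The call was lost with DESeq2 (p 0.0753) and with edgeR's likelihood ratio test (p 0.0654). *Ntng1* encodes netrin-G1, which sits on axons and binds the postsynaptic protein NGL-1. It had 30.2 and 24.8 CPM in control, and 19.8 and 11.5 in *Ash1L* shRNA samples. The groups did not overlap, and the log2 change was -0.81 with an SE of 0.27. *Ntng2* had 9.63 and 8.44 CPM in control, and 8.11 and 5.5 in *Ash1L* shRNA samples, and was not called. It shares 14.0% of its exonic bases with another gene of the tables, *6530402F18Rik*. *Ntn3*, *Ntn4* and *Ntn5* had log2 changes from -0.51 to -0.38.

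All 5 genes for Dcc and the Unc5 receptors had log2 changes below 0. Of these, 2 were DOWN (40.0%, against 8.28% of all genes tested). *Unc5a*, a repulsive netrin receptor, had 50.2 and 53.5 CPM in the control samples, and 38.3 and 32.7 in the *Ash1L* shRNA samples. The groups were well apart, and the log2 change was -0.55 (SE 0.13, unadjusted p 0.00569 in edgeR's test). *Unc5c* had 57.7 and 63.3 CPM in control, and 49.0 and 37.5 in *Ash1L* shRNA samples. Both *Ash1L* shRNA samples were lower, and the log2 change was -0.48 (SE 0.16). *Dcc*, the attractive netrin receptor, had 43.1 and 45.0 CPM in control, 42.8 in *Ash1L* shRNA sample 1 and 20.4 in sample 2. Sample 1 was at the level of the controls, and the log2 change of -0.48 had an SE of 0.33. *Unc5d*, known from upper cortical layers, had a log2 change of -0.20 and *Unc5b* one of -0.01.

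None of the Slit and Robo genes was called. In edgeR's test 0 of the 7 had an unadjusted p under 0.05, against 16.9% of all genes tested. A count of 0 among so few genes says little beside that share. *Slit2* had 66.0 and 86.5 CPM in the control samples, and 63.9 and 56.2 in the *Ash1L* shRNA samples, with a log2 change of -0.35 (SE 0.16). *Slit1* had 72.7 and 77.5 CPM in control, and 75.9 and 80.3 in *Ash1L* shRNA samples. *Slit3* had 43.2 to 53.2 and 45.3 to 61.6 CPM, and groups of both *Slit1* and *Slit3* overlapped. *Robo2*, the most abundant Robo gene, had 189 and 225 CPM in control, and 198 and 154 in *Ash1L* shRNA samples, a log2 change of -0.23 (SE 0.16). *Robo1* had 95.1 and 95.4 CPM in control, and 93.3 and 105 in *Ash1L* shRNA samples. *Robo3* and the endothelial *Robo4* stayed under 20 CPM, with log2 changes of -0.38 and 0.12.

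Levels were compared between genes as CPM per exonic kilobase, with exonic lengths from GENCODE vM21. In the control samples *Ephb6* stood at 67.0 ± 12.3 and *Epha4* at 57.2 ± 1.35 (SD, n = 2 each), which do not differ beyond their spread. They were followed by *Sema7a* at 46.6 and *Sema6b* at 26.1. The plexins *Plxna1*, *Plxna2* and *Plxna4* stood at 17.1, 16.0 and 15.9, with *Plxna2* not apart from *Plxna1* or *Plxna4* beyond its spread. Among the other families, *Efnb3* stood at 16.0, *Slit1* at 12.7, *Unc5a* at 12.4, *Robo2* at 12.2 and *Nrp1* at 10.1. In the *Ash1L* shRNA samples *Ephb6* and *Epha4* both stood at 48.0, *Sema6b* at 18.8 and *Nrp1* at 18.6. The DOWN genes with the lowest levels were *Plxna3*, *Ntng1* and *Unc5c* at 4.13, 3.33 and 3.16, and 25 of the 71 genes lay below them.

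**Figure D4:**
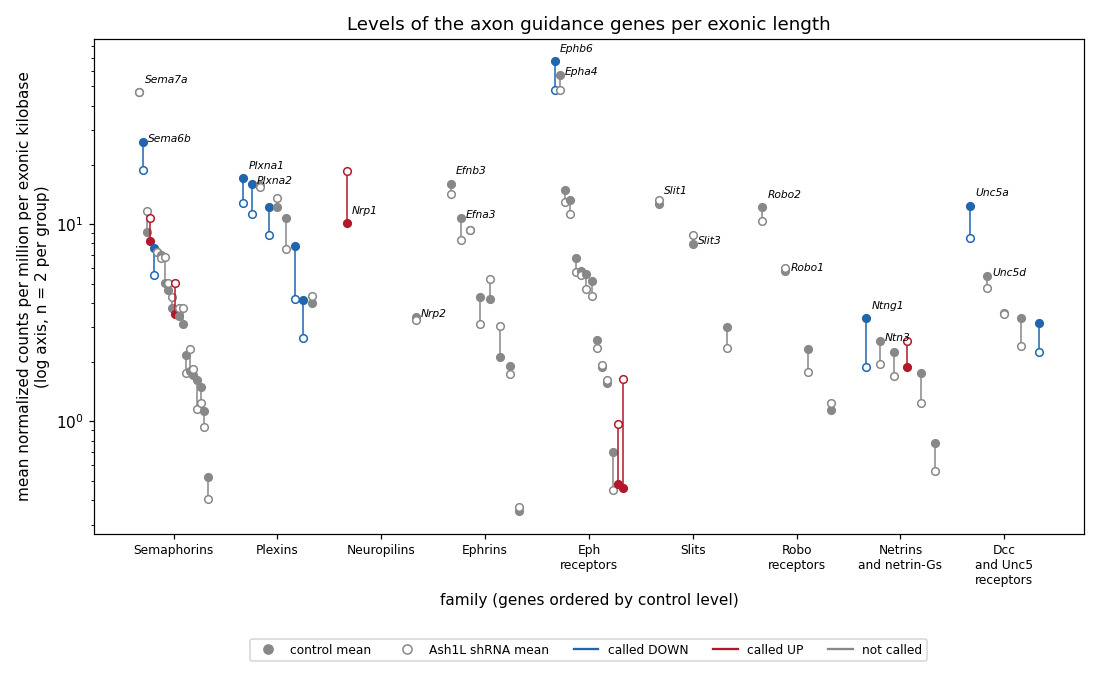
Mean CPM per exonic kilobase (y axis, log scale, n = 2 per group) of the 71 guidance genes by family, with filled points for control, open points for *Ash1L* shRNA samples and a line between them colored by the call. *Ephb6*, *Epha4* and *Sema7a* lie highest in control, at 67.0, 57.2 and 46.6, and the UP genes *Epha1* and *Epha2* lie near the bottom at 0.481 and 0.460.

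Further genes of the pathway were taken as lists, which were chosen with earlier results of these data known. Their shares of calls are therefore a description. Of 24 genes for guidance co-receptors and further cues, 9 were DOWN (37.5%, against 8.28% of all genes tested). In the UP direction there were 0, against 8.61% of all genes, and the median log2 change was -0.18. The DOWN genes included partners of the netrin system. *Lrrc4c*, which encodes the netrin-G1 ligand NGL-1, had 194 and 230 CPM in the control samples, and 179 and 144 in the *Ash1L* shRNA samples. *Lrrc4*, which encodes the netrin-G2 ligand NGL-2, had 119 and 111 CPM in control, and 100 and 83.7 in *Ash1L* shRNA samples. Both genes were lower in both *Ash1L* shRNA samples, with log2 changes of -0.39 (SE 0.15) and -0.32 (SE 0.13). *Dscam*, an immunoglobulin superfamily protein that also binds netrin, had a log2 change of -0.37 (SE 0.12). *Flrt2*, a ligand of Unc5 receptors, had one of -0.34 (SE 0.11), while its relatives *Flrt1* and *Flrt3* were not called at -0.05 and 0.20. *Rgma*, a repulsive cue, had 10.6 and 12 CPM in control, and 7.96 and 6.61 in *Ash1L* shRNA samples, with a log2 change of -0.63 (SE 0.21). Its receptor gene *Neo1* was not called at -0.09. *Cntn2*, *Lrrc4b*, *Ptch1* and *Boc* were the other DOWN genes of this list, with log2 changes from -0.44 to -0.28. Most calls of this list were lost when a control sample or *Ash1L* shRNA sample 2 was left out, and the share of all genes called DOWN fell as well.

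Of 55 genes for signaling effectors under these receptors, 9 were DOWN (16.4%, against 8.28% of all genes tested). In the UP direction there were 0, against 8.61% of all genes, and the median log2 change was -0.07. *Farp1*, a guanine nucleotide exchange factor that acts with class A plexins, had 79.8 and 84.2 CPM in the control samples, and 61.5 and 49.5 in the *Ash1L* shRNA samples. It was lower in both, with a log2 change of -0.56 (SE 0.14). *Kalrn*, an exchange factor in dendritic spines that acts under EphB receptors, had a log2 change of -0.51 (SE 0.13), and *Dock3*, an exchange factor for Rac1, one of -0.67 (SE 0.17). *Itsn1* had one of -0.43 (SE 0.13). *Mical2*, *Ngef*, *Abl1* and *Pak3* were also DOWN, with log2 changes from -0.68 (*Pak3*) to -0.36 (*Abl1*). Adjusted p-values of the 18 DOWN partner genes lay between 0.253 and 0.291 in edgeR's quasi-likelihood test. Without control sample 2 most DOWN calls of the effector list were lost, and the share of all genes called DOWN fell as well.

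Summed levels of cell type markers were apart between the groups for some cell types and overlapped for others. The summed level of 8 excitatory neuron markers was 2886 to 3385 CPM in control and 2179 to 2662 in *Ash1L* shRNA samples, with 3 DOWN. For 8 interneuron markers it was 710 to 792 and 674 to 696 CPM, with 3 DOWN, and for 8 astrocyte markers 5374 to 5693 and 3227 to 4338 CPM, with 5 DOWN. The summed level of 9 markers of infiltrating leukocytes was 56.5 to 105 CPM in control and 19.6 to 36.2 in *Ash1L* shRNA samples, with 7 DOWN. These 4 summed levels were lower in both shRNA samples than in both control samples. All 8 excitatory and all 9 leukocyte markers had log2 changes below 0, but 3 of 8 interneuron markers (*Gad2*, *Npy*, *Slc32a1*) and 3 of 8 astrocyte markers (*Aqp4*, *Sox9*, *Gfap*) did not. The 8 endothelial markers had 273 to 306 CPM in control and 289 to 320 in *Ash1L* shRNA samples, with *Kdr*, a vascular endothelial growth factor receptor gene, as the only UP gene of the list. The 6 mural cell markers had 141 to 151 and 159 to 172 CPM (1 UP), the 8 meningeal fibroblast markers 186 to 222 and 225 to 227 (2 UP and 1 DOWN), and the 6 oligodendrocyte precursor markers 211 to 215 and 212 to 277 (2 UP). The 7 striatal markers found in the tables had 171 to 173 and 198 to 247 CPM, with 3 UP and 1 DOWN. The 8 oligodendrocyte markers had 2593 to 2940 and 2459 to 2799 CPM, with 1 DOWN. The 8 microglia markers had 747 to 770 CPM in control, 958 in *Ash1L* shRNA sample 1 and 386 in sample 2, with 0 called. No marker of these lists was at 0 in all samples. The part of these cell types in the calls of the guidance genes was not tested.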

How the data were processed

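RNA from PFC punches of 2 control and 2 *Ash1L* shRNA samples went into strand-specific libraries after ribosomal RNA depletion (TruSeq, Ribo-Zero). The authors mapped read pairs to mm10 with STAR and counted genes with featureCounts. The deposited tables hold raw counts by gene symbol. The protocol in the labels instead names Cutadapt and TopHat2. Strand and multiple-mapping settings are not given in the sources used here, so overlapping genes may share reads.

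Counts were filtered with filterByExpr, scaled by TMM and tested in edgeR 4.0.16 under R 4.3.3 (robust quasi-likelihood test, no covariates, Benjamini-Hochberg adjustment over 16232 genes). CPM is the TMM-normalized count scaled to library size. SE is the absolute log2 change over the root of F. DESeq2 1.42.0 served as an alternative. GENCODE vM21 gave exonic length, GC content and position for 93.6% of tested genes and all 71 guidance genes, and RefSeq (GRCm38.p6) gave the upstream sequences. The procedure was tested on simulated counts.

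The guidance genes, lists and tests were chosen with earlier results of these data known. The text names *Ash1l*, every called guidance gene, the 2 members of each family with the highest level per exonic length, and the 4 called genes of each partner list with the smallest p. Other genes were named after their values were seen. A gene of the effector list is counted but not reported here.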

Additional observations from a re-analysis of the deposited data

How the results depend on the processing

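Alternatives were DESeq2 with and without shrunken fold changes, the likelihood ratio test of edgeR, scaling by library size, upper quartile or RLE, no low-count filter or at least 10 counts in every sample, offsets for GC content or exonic length, a replicate block, a limit of 1.5-fold, and omission of each sample. Under the tools, scalings, filters, offsets and blocks, the guidance genes counted 8 to 13 DOWN and 5 to 7 UP, while the shares over all genes ran from 5.81% (block and GC offset) to 10.7% DOWN (crossed block) and from 6.48% (block) to 10.1% UP (library-size scaling). At 1.5-fold they counted 3 and 3, with 1 co-receptor and 2 effectors DOWN. The shares over all genes were not computed at that limit, so these counts have no background beside them. With 1 sample left out, DOWN ran from 4 (without control 2) to 23 (without *Ash1L* shRNA 1) and UP from 0 to 10, co-receptors from 0 to 10 DOWN and 0 to 1 UP, and effectors from 1 to 13 DOWN and 0 to 7 UP. The shares over all genes moved over the same cases, as given in the Results. They too were lowest without control 2 and highest without *Ash1L* shRNA 1. These ranges by themselves therefore cannot be read as particular to the guidance genes or the partner lists. A lone sample was assumed to vary like the other group. Effectors UP were 1 without the low-count filter, with either offset, and with block and length offset.

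Medians of log2 change moved as follows. Semaphorins stood at 0.051 with shrinkage, 0.083 with upper-quartile and 0.11 with library-size scaling, 0.10 with the GC and 0.090 with the length offset. Eph receptors stood at -0.19 with shrinkage, -0.17 with library-size scaling, and -0.18 with either offset. All guidance genes stood at -0.13 with library-size scaling and -0.082 with the GC offset, ephrins at -0.029 and Slits at 0.15 with the GC offset. With 1 sample left out, the medians ran from -0.18 to -0.077 (all), 0.022 to 0.065 (semaphorins), -0.64 to -0.31 (plexins), 0.16 to 0.63 (neuropilins), -0.17 to -0.0017 (ephrins), -0.23 to -0.14 (Eph receptors), -0.082 to 0.091 (Slits), -0.15 to -0.024 (Robo), -0.52 to -0.33 (netrins) and -0.67 to -0.16 (Dcc and Unc5). *Ash1l* was -0.55 with the length offset (p 0.0584, edgeR) and ran from -0.97 to -0.31 with 1 sample left out, with its call lost in 3 of 4 cases.

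With 1 sample left out, the sign turned for 20 of the 71 genes, 0 of them called. Among the called genes and the most abundant of each family, signs turned for *Plxna4* (0.0014 with the length offset, 0.014 without control 1, 0.049 without *Ash1L* shRNA 1), *Sema7a* (-0.084 without control 2, -0.16 without *Ash1L* shRNA 1), *Nrp2* (0.080 without *Ash1L* shRNA 1), and, without *Ash1L* shRNA 2, for *Slit3* and the Slit median (both -0.082) and *Robo1* (-0.027). Without *Ash1L* shRNA 1, *Slit3* stood at 0.35 and *Robo1* at 0.13. The cause of these shifts was not tested.

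The labels tie same-numbered samples by the number alone. Their deviations from the group means correlated at -0.11, a single value that leaves the pairing untested. With the replicate block, 11 guidance genes were DOWN and 5 UP, and 4 co-receptors were DOWN. *Efna5* gained a call (p 0.0474, edgeR), and *Sema4f* (p 0.0534) and *Ntn1* (p 0.0821) lost theirs. Block and GC offset gave 8 and 6, with 2 co-receptors DOWN and medians of -0.092 (all), 0.10 (semaphorins), -0.18 (Eph receptors) and 0.15 (Slits). Block and length offset gave 13 and 5, with 3 co-receptors DOWN, medians of 0.090 (semaphorins) and -0.17 (Eph receptors), and *Ash1l* at -0.58 (p 0.0576, edgeR). The crossed pairing, added after the data were seen, gave 13 DOWN and 6 UP. Depth limits *Efna4* (11 to 16 counts) and *Ntn5* (26 to 41 counts).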
